A study of Bos taurus with 12 samples.

Results

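The miRNA profiles of lactating and dry mammary glands were compared in Chinese Holstein cows with a high milk protein percentage. The comparison holds the 6 libraries of the high protein cows out of the 12 libraries of the series, namely 3 from cows in lactation (HP) and 3 from cows in the non-lactating, or dry, period (HD). It was made over all 388 mature miRNAs of the deposited table, with 1 row per mature miRNA, for which the entry of the precursor with the highest mean was taken from the 426 entries. All cows were healthy and multiparous, HP cows were biopsied near the peak of lactation and HD cows before the expected calving, and each library came from a different cow. The stages were therefore compared between cows and not within a cow, and any difference between the cows other than stage cannot be told apart from it. The 6 libraries of low protein cows, LP in lactation and LD in the dry period, were used only to see how far the stage difference also held there. A library is named by its group and replicate number, so that HP2 is HP replicate 2.

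miRNAs are short RNAs that guide Argonaute proteins to matching messenger RNAs, which are then translated less or degraded. Each is cut from a hairpin precursor, whose 2 arms can give a 5p and a 3p miRNA, and neighbouring hairpins are often transcribed together as a cluster. In the dairy cow the mammary gland secretes milk during lactation, regresses in part when milking stops, and renews its secretory epithelium in the dry period before the next calving.

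Values are given as normalized TPM, the deposited TPM of the authors (the reads of a miRNA scaled to the sum of all miRNA reads of its library) divided by a size factor per library. Since a read counts as 1 miRNA, no length correction enters. How evenly different miRNAs are captured as reads was not tested, so ranks, sums and ratios between miRNAs describe reads and not molecules. Related miRNAs that differ by a single base can also share reads. The table steps in whole reads, which gave 6026797 to 12259867 reads per library in HP and 11047701 to 23577942 in HD. These totals cover all 426 entries, and a read of a miRNA with several precursors can count at each of them. A count of 3 reads stood for 0.127 to 0.498 TPM in the 12 libraries, so the depth limited what could be seen of miRNAs below about 1 TPM, and such limits cover counting error only. Depth moved with stage, since the HP libraries were the shallower ones apart from HP2, which was deeper than HD1, and its part in the results was not tested. In biopsies of whole tissue, fewer cells of a type and less RNA per cell cannot be told apart. Epithelial miRNAs were read in every library, which shows epithelium but cannot tell mammary from other epithelium. The paper names the missing visual inspection of the biopsies as a weakness, and adds that its most expressed miRNAs resembled those of earlier studies. miR-205 had 10106 to 17138 normalized TPM in HP and 9941 to 17089 in HD, and the 6 measured members of the epithelial list (the miR-200 family, miR-141, miR-429 and miR-205) summed to at least 19475 in every library.

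The stages lay farther apart than the cows within a stage. The root mean square difference of log2 values over all miRNAs was 0.468 to 0.815 between HP libraries, 0.681 to 0.851 between HD libraries and 1.15 to 1.42 between the groups. The first principal component held 66.1% of the variance and placed the HP libraries between -11.6 and -10.6 and the HD libraries between 8.31 and 13.9. The second component held 13.4% and was led by HP1 (9.56), which stood apart from the other HP libraries.

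With limma over the 6 libraries, 117 of the 388 miRNAs (30.2%) passed a Benjamini-Hochberg adjusted p of 0.05. Of all miRNAs 55 (14.2%) were higher in HP and 62 (16.0%) were higher in HD. For each of these 117 the 3 HP and the 3 HD values did not overlap, which held for 185 of all 388 miRNAs (47.7%). With the limits the study used for DE miRNAs, a log2 fold change beyond 0.8 in either direction at an unadjusted p under 0.05, 149 miRNAs (38.4%) differed, 76 higher in HP and 73 higher in HD. On the log2 scale with 1 added, which understates differences of low miRNAs, at least a 2-fold difference was found in 102 of the 117, and at least a 4-fold difference in 34, of which 21 were higher in HP and 13 higher in HD. Over the 388 miRNAs the median of the log2 fold change was 0.02, a value that the size factors hold near 0 by their construction. Among the 236 miRNAs with a mean of at least 10 normalized TPM, 75 passed, 36 higher in HP. Of the 70 miRNAs with a mean of at least 1000, 16 passed.

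**Figure D1:**
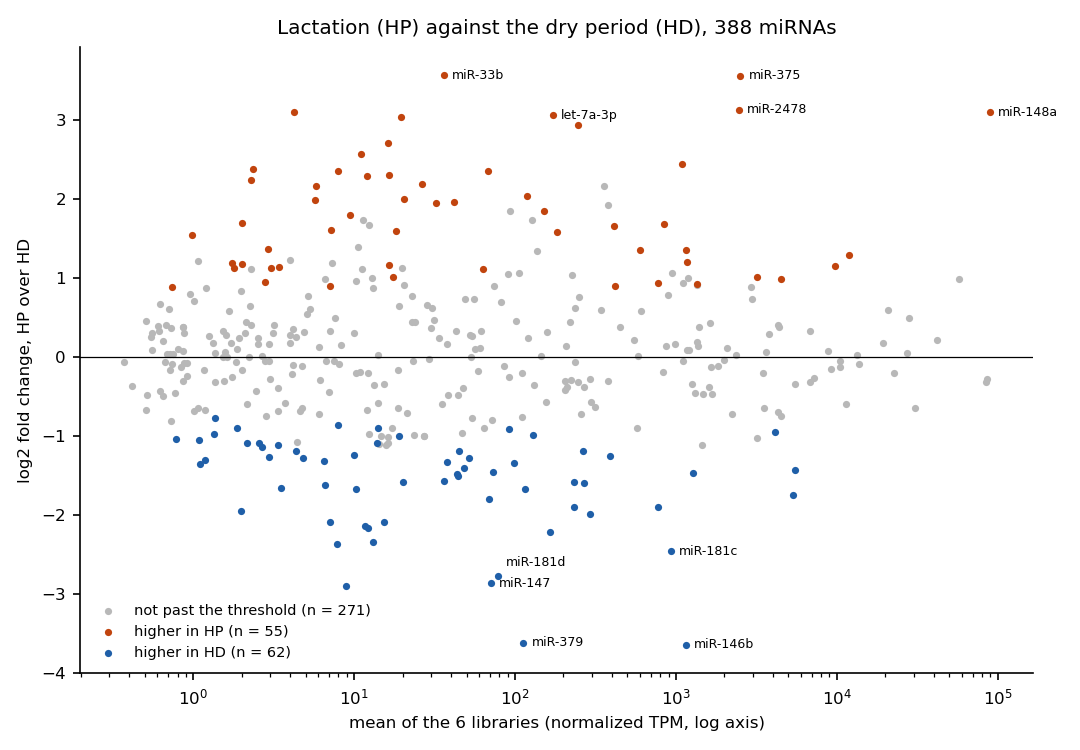
Mean level over the 6 libraries (normalized TPM, log axis) against the log2 fold change of HP over HD for the 388 miRNAs. Orange points are the 55 miRNAs higher in HP and blue points the 62 higher in HD at a limma adjusted p under 0.05, and names mark the 5 largest differences in each direction among those with a mean of at least 10. Both directions occur at low and at high levels, and miR-148a stands alone at the right with a high level and a large difference.

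The number of miRNAs that passed depended on single libraries. It was 61 without HP2, 71 without HD2 and 77 without HP3, and 92 to 122 without one of the others. In all alternatives that tested them, those without each library included, 54 miRNAs passed, 30 higher in HP and 24 higher in HD, and none of the 117 changed sign. Without size factors 105 passed, 39 higher in HP and 66 higher in HD, and the median over the 388 miRNAs was -0.15.

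Among miRNAs with a mean of at least 10 normalized TPM, the largest differences in the direction of lactation were those of miR-33b, miR-375, miR-2478, miR-148a and let-7a-3p. miR-148a, a miRNA well known from milk and from lactating mammary epithelium that targets DNA methyltransferase 1, had 180406, 151793 and 147566 normalized TPM in HP1, HP2 and HP3. In HD1, HD2 and HD3 it had 14506, 17398 and 25520.2. The lowest lactating cow was thus far above the highest dry cow, with a log2 fold change of 3.10 (SE 0.29, n = 3 and 3, limma adjusted p = 0.000441). It ranked first in HP and was the ninth miRNA by mean in HD, where miR-143 was the highest.

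miR-375, known from pancreatic islets and from many secretory epithelia, had 3014, 6190 and 4736 normalized TPM in HP against 262, 529 and 383 in HD. That is a log2 fold change of 3.56 with SE 0.37 and, by limma, an adjusted p of 0.000497. miR-33b had 62.7, 64.3 and 75.5 in HP and 4.09, 3.87 and 6.72 in HD, the largest log2 fold change of the comparison among miRNAs with a mean of at least 10 in the direction of HP (3.57, SE 0.31, limma adjusted p = 0.000316). Its relative miR-33a had 19.96, 25.1 and 16.9 in HP and 2.75, 3.23 and 4.29 in HD (log2 fold change 2.29 ± 0.30 SE, adjusted p by limma = 0.0011). Both lie in introns of the SREBF genes, the master regulators of sterol and fatty acid synthesis. In each of these miRNAs the groups were well separated, although the miR-375 values varied about 2-fold within both groups.

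let-7a-3p, the minor arm of a let-7a hairpin, had 503, 203 and 208 normalized TPM in HP and 79.3, 27.3 and 15.1 in HD (log2 fold change 3.07 ± 0.60 SE, adjusted p by limma = 0.00691). HP1 was the high library and HD1 the high one of the dry cows, and without HD1 the log2 fold change was 3.68. The bovine miRNA miR-2478 had 4666, 4694 and 3696 in HP and 1015, 451 and 260.0 in HD (log2 fold change 3.13 ± 0.46 SE, adjusted p by limma = 0.00188). miR-885 had 36.6, 26.8 and 23.7 against 4.35, 3.45 and 2.85, and miR-1949 had 12.3, 24.3 and 21.6 against 4.79, 2.13 and 0.968, with log2 fold changes of 2.71 and 2.58. miR-6522 had 54.7, 35.4 and 41.1 in HP and 5.82, 7.19 and 15.1 in HD (log2 fold change 2.19 ± 0.39 SE, adjusted p by limma = 0.00461). The calls of all these lactation miRNAs held without each library.

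Below that mean, miR-6715, chosen after its values were seen, had 8.77, 6.41 and 9.84 normalized TPM in HP and 0, 0.131 and 0.0911 in HD, where it rested on 0, 3 and 2 reads (log2 fold change 3.10 ± 0.24 SE, adjusted p by limma = 0.000316). 1 miRNA was read in every HP library and in no HD library. miR-12035 had 15, 19 and 15 reads in HP and 0 reads in each HD library. Against the 3-read limit over the pooled HD libraries it was at least 32.5-fold higher in HP (limma adjusted p = 0.00189).

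Among miRNAs with a mean of at least 10 normalized TPM, the largest differences in the direction of the dry gland were those of miR-146b, miR-379, miR-147, miR-181d and miR-181c. miR-146b, which NF-kB induces and which restrains innate immune signalling, had 172, 117 and 129 normalized TPM in HP and 1257, 949 and 4335 in HD. HD3 was more than 3 times as high as the other dry cows. This gave a log2 fold change of -3.64 with SE 0.53 and a limma adjusted p of 0.00186, and it was -2.99 without HD3 (limma adjusted p = 0.00257). miR-379 had 7.47, 7.55 and 10.99 in HP and 112, 26.5 and 512 in HD, with HD3 again the high library. Its log2 fold change of -3.62 (SE 0.88, limma adjusted p = 0.0163) moved to -2.56 without HD3 and to -4.65 without HD2, and the adjusted p was 0.0647 without HP2.

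miR-181d and miR-181c come from 1 hairpin cluster and are members of a family known from lymphocyte development. miR-181d had 21.5, 19.4 and 16.4 normalized TPM in HP and 107.2, 155 and 151 in HD (log2 fold change -2.77 ± 0.29 SE, adjusted p by limma = 0.000497). For miR-181c the values were 201, 385 and 283 in HP and 1258, 2038 and 1419 in HD (log2 fold change -2.45 ± 0.33 SE, adjusted p by limma = 0.00134). The other members of the family, miR-181a and miR-181b, which come from other loci, are more abundant and did not pass (log2 fold changes -0.65 and -0.12). miR-181a had 21135 to 25006 in HP and 28144 to 50707 in HD. The number of family members that passed depended on the scaling. Without size factors 3 of the 4 passed as higher in HD, and so they did with a total without the 10 most abundant miRNAs.

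miR-147 had 8.95, 22.3 and 15.8 normalized TPM in HP and 191, 124 and 61.1 in HD (log2 fold change -2.86 ± 0.48 SE, adjusted p by limma = 0.00401). Values were even within the groups for miR-93, a cell cycle miRNA of the miR-106b-25 cluster, with 676, 695 and 669 in HP and 1777, 2057 and 1802 in HD (log2 fold change -1.46 ± 0.23 SE, adjusted p by limma = 0.00295). miR-211, whose hairpin lies in an intron of TRPM1, had 1.304, 0.97 and 1.72 in HP and 13.9, 14.2 and 21.4 in HD (log2 fold change -2.89 ± 0.29 SE, adjusted p by limma = 0.000497). Its family member miR-204 had 105 to 159.5 in HP and 78.6 to 166 in HD, and the groups overlapped.

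**Figure D2:**
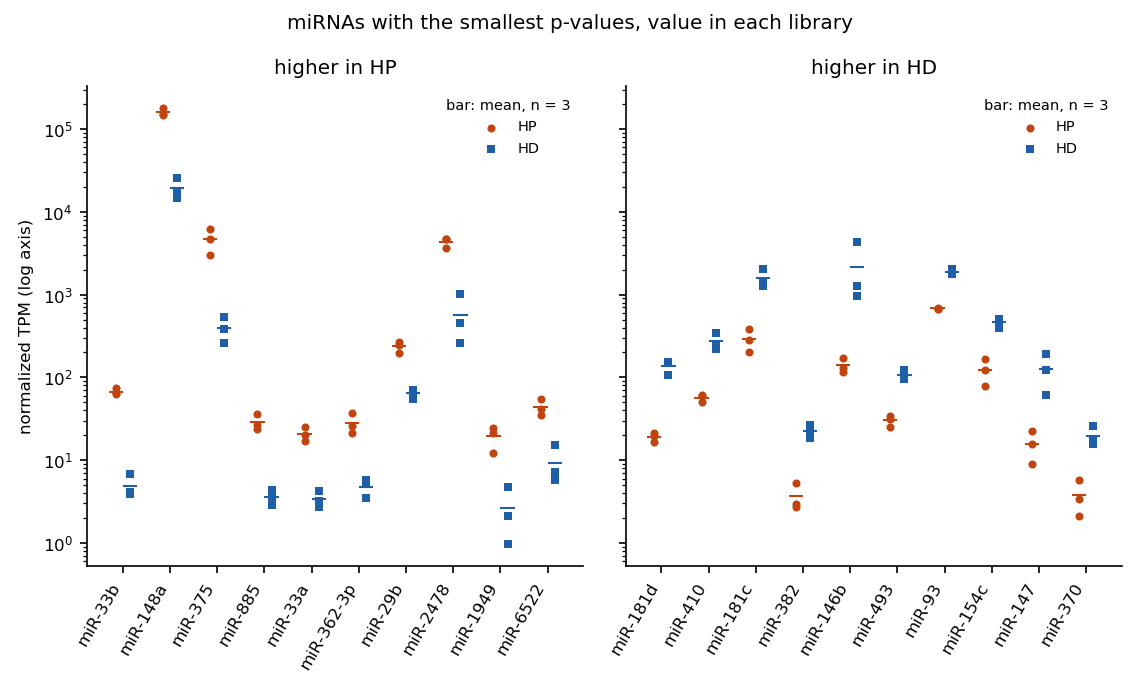
Normalized TPM (log axis) in each library for the 10 miRNAs with the smallest p-values in each direction among those with a mean of at least 10, HP as orange circles and HD as blue squares, with bars at the means of 3 libraries. The groups are apart for every miRNA shown, and the spread is widest in the HD libraries of miR-1949, miR-146b and miR-2478.

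The make-up of the libraries was taken as shares of the deposited TPM summed over the 388 miRNAs, without the other precursor entries. In it the stages differed most in miR-148a. This miRNA alone held 20.6%, 17.7% and 18.5% of the sum in the HP libraries and 2.75%, 2.49% and 2.99% in the HD libraries. The 55 miRNAs higher in HP together held 26.4% ± 1.52 (SD, n = 3) in HP and 6.31% ± 0.689 in HD, and the 62 higher in HD held 1.32% ± 0.202 in HP and 4.78% ± 0.260 in HD. Apart from miR-148a, the miRNAs higher in HP held 7.44% ± 0.115 in HP and 3.56% ± 0.574 in HD. These miRNAs were chosen by the same values, so their shares are a description, and for miR-148a the exact permutation test gave p = 0.1, the smallest that 3 against 3 libraries allow. The other 271 miRNAs made up 72.3% of the sum in HP and 88.9% in HD. Since the shares of a library add up to the whole, the larger share of miR-148a in HP by itself lowers every other share there.

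**Figure D3:**
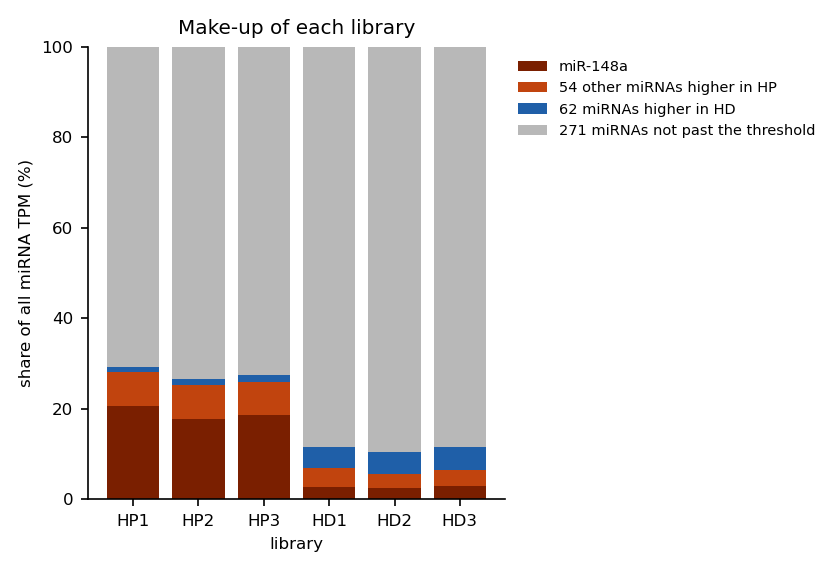
Share (%) of the deposited TPM summed over the 388 miRNAs, without the other precursor entries, in each library. The parts are miR-148a, the 54 other miRNAs higher in HP, the 62 miRNAs higher in HD and the 271 that did not pass. miR-148a fills 17.7% to 20.6% of this sum in the HP libraries and 2.49% to 2.99% in the HD libraries.

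The 28 miRNA lists were families, genomic clusters and cell type markers, and each count of members stands against the 14.2% of all miRNAs higher in HP and the 16.0% higher in HD. For the miRNAs tied to lipid and energy metabolism the median log2 fold change was 0.90 against 0.02 over all miRNAs. Without size factors it was 0.68 against -0.15. Of the 8 members 3 were higher in HP, against 14.2% of all miRNAs, and none was higher in HD. These were miR-33a, miR-33b and miR-103, which lies in an intron of a pantothenate kinase gene and had 4556, 4416 and 3877 normalized TPM in HP and 2236, 2373 and 1789 in HD (log2 fold change 1.01 ± 0.25 SE, adjusted p by limma = 0.0163). miR-103 did not pass without HP2 (adjusted p = 0.0627) or without size factors (0.0786). Its relative miR-107 had 908 to 1482 in HP and 543 to 855 in HD and did not pass, nor did the 4 members of the miR-378 group, whose log2 fold changes ranged from 0.18 to 1.05.

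In the miR-29 family, known for targeting collagens and DNA methyltransferases, 3 of 5 were higher in HP, against 14.2% of all miRNAs (median 1.18). miR-29b had 247, 266 and 200 normalized TPM in HP and 68.4, 55.4 and 70.6 in HD (log2 fold change 1.86 ± 0.27 SE, adjusted p by limma = 0.00185). miR-29c had 3398, 1329 and 907 in HP and 328, 219 and 348 in HD (log2 fold change 2.45 ± 0.47 SE, adjusted p by limma = 0.00659), with HP1 the high library. The most abundant member, miR-29a, had 3418 to 5365 in HP and 2998 to 3987 in HD, and the groups overlapped. miR-29b and miR-29c are neighbours on the genome, and miR-29d-3p, the third that passed, was low in both groups (2.58 to 4.29 and 0.600 to 1.28) and did not pass without HD2 (limma adjusted p = 0.0511).

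The cluster of miR-532, miR-362, miR-502 and miR-660, which lies in an intron of the chloride channel gene CLCN5, had 4 of 8 members higher in HP (median 0.92) and summed to 2024 to 2716 normalized TPM in HP and 1260 to 1304 in HD. miR-362-3p had 25.9, 37.1 and 21.2 in HP and 5.69, 3.49 and 5.22 in HD (log2 fold change 2.31 ± 0.33 SE, adjusted p by limma = 0.00181), and miR-502a had 14.5 to 15.8 and 3.33 to 4.001 (log2 fold change 1.80). The abundant members miR-660 and miR-532 had smaller differences, with log2 fold changes of 0.93 and 0.90 (limma adjusted p = 0.034 and 0.0397). Neither passed without size factors, miR-660 passed only when HP3 was the library left out and miR-532 only when it was HP1 (adjusted p up to 0.125 otherwise). In the other direction miR-502b had 9.70 to 12.5 in HP and 17.0 to 32.5 in HD and did not pass (limma adjusted p = 0.0691). The members of this cluster thus did not all point the same way. Without size factors 2 of them passed as higher in HP and 1 as higher in HD.

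The DLK1-DIO3 region is an imprinted domain whose many miRNAs are expressed from the maternal chromosome and are known from fetal and growing tissues. Of the 35 measured members on its list 22 were higher in HD, against 16.0% of all miRNAs, and none was higher in HP. All 35 had a log2 fold change below 0, although that of miR-323 was -0.00023, and the median was -1.10. The region is transcribed as large clusters, so its members are not independent of each other. Their sum was 3129 to 3413 normalized TPM in HP and 7516 to 14558 in HD (exact permutation p = 0.1, the smallest possible). Most of it was 1 member, miR-411a, with means of 2343 in HP and 8266 in HD against mean sums of 3241 and 10902. When the libraries were left out in turn, between 13 (without HP2) and 27 (without HP1) members passed, with 15 without HD2, 16 without HP3, 18 without HD1 and 21 without HD3. Without size factors 22 passed.

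Within this region miR-411a was by far the most abundant, with 2324, 2420 and 2285 normalized TPM in HP and 5158, 8015 and 11624 in HD (log2 fold change -1.74 ± 0.32 SE, adjusted p by limma = 0.00568). The HP values lay close together, whereas HD3 was more than 2 times HD1. miR-410 had 60.8, 51.0 and 59.6 in HP and 254, 343 and 223 in HD (log2 fold change -2.22 ± 0.28 SE, adjusted p by limma = 0.00107). miR-382 had 2.98, 2.73 and 5.35 against 26.8, 18.4 and 21.8 (log2 fold change -2.34), and miR-370 had 5.78, 3.43 and 2.10 against 17.0, 15.6 and 25.8 (log2 fold change -2.14). These and miR-154c, with 78.0 to 165 in HP and 400 to 507 in HD, passed without each library. miR-493 had 34.1, 24.9 and 31.5 in HP and 96.9, 121 and 103 in HD (log2 fold change -1.80 ± 0.28 SE, adjusted p by limma = 0.00245). miR-127, which lies antisense to the imprinted gene RTL1, had 87.1, 148 and 168 in HP and 277, 471 and 465 in HD (log2 fold change -1.59, limma adjusted p = 0.0118, and 0.0509 without HD2). miR-380-3p had 74.1 to 193 in HP and 308 to 378 in HD (limma adjusted p = 0.0142, and 0.0511 to 0.0573 without HP2, HP3 or HD2).

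Other members differed less. miR-494 had 97.9, 14.1 and 18.0 in HP and 70.7, 40.3 and 25.1 in HD, and miR-411c-5p had 74.7 to 91.1 and 94.9 to 101 (log2 fold changes -0.48 and -0.25, neither past the threshold). The groups of miR-494 overlapped and HP1 was its highest library.

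The calls were also read by genome neighbourhood. With RefSeq annotation, 385 of the 388 miRNAs were placed, and neighbours no more than 10000 bases apart were joined into 63 clusters with 190 miRNAs. The 2 arms of 1 hairpin also counted as neighbours, so some of these clusters are a single hairpin. Of the 190 miRNAs 63 passed, against 30.2% of all miRNAs. In 11 of these clusters at least 2 members passed. The members that passed had the same direction in each of the 11, higher in HP in 3 and higher in HD in 8, and clusters with called members of both directions numbered 0. This held for the calls with size factors. Without them the miR-532 cluster had 2 members higher in HP and 1 higher in HD. The 3 clusters higher in HP were miR-29b with miR-29c, the pair from the miR-126 hairpin and the miR-532 cluster. Among the 8 were 2 clusters of the DLK1-DIO3 region with 18 and 5 such members, miR-181c with miR-181d, miR-130b with miR-301b, miR-182 with miR-183, and the miR-106b-25 cluster. The others were the pair from the miR-1247 hairpin and the cluster of miR-450, miR-503 and miR-542. The cluster with 18 also held miR-369-5p and miR-3956, both higher in HD, which were not on the DLK1-DIO3 list.

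In the cluster of miR-183, miR-96 and miR-182, known from sensory organs and epithelia, both measured members were higher in HD. miR-183 had 76.1, 96.3 and 113 normalized TPM in HP and 223, 424 and 461 in HD (log2 fold change -1.89 ± 0.35 SE, adjusted p by limma = 0.00537). miR-182 had 1896, 3379 and 3680 in HP and 5244, 9238 and 9414 in HD (log2 fold change -1.42 ± 0.36 SE, adjusted p by limma = 0.0186) and did not pass without HP2, HD2 or HD3 (adjusted p up to 0.0814). HP1 and HD1 were the low libraries of both members. In the family of miR-130, miR-301 and miR-454 3 of 5 were higher in HD, miR-301b with 1.76 to 2.39 in HP and 11.3 to 13.4 in HD (log2 fold change -2.09, limma adjusted p = 0.00106), miR-130b with 31.5 to 48.5 and 79.1 to 152 (adjusted p = 0.0146, and 0.0573 and 0.0513 without HP2 and HD2), and miR-454 with 8.27 to 11.5 and 16.5 to 19.8 (adjusted p = 0.0435), which lost its call whichever library was left out (adjusted p up to 0.117).

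In the miR-17-92 and miR-106b-25 clusters, known as drivers of proliferation, 2 of 15 were higher in HD, a share close to the 16.0% of all miRNAs. These were miR-93 and miR-25. miR-25 had 2466, 2802 and 3108 normalized TPM in HP and 4369, 5471 and 6376 in HD (log2 fold change -0.94 ± 0.26 SE, adjusted p by limma = 0.0268) and passed only when HD1 was the library left out (adjusted p up to 0.0844 otherwise). The most abundant member, miR-92a, had 7367 to 11962 in HP and 7593 to 8980.0 in HD. The miR-15 and miR-16 family was split, with 3 of 8 higher in HD and 1 higher in HP. miR-15a had 1202, 915 and 936 in HP and 607, 444 and 545 in HD, whereas miR-15b had 105, 70.9 and 84.9 against 129, 207 and 184 (log2 fold changes 0.94 and -0.98). Both calls were lost without HP2, HP3, HD2 or HD3, and that of miR-15a also without HP1 and without size factors (limma adjusted p up to 0.130). The other members higher in HD were both arms of miR-503, a miRNA known from mammary involution in the mouse, at 0 to 2.86 in HP and 0.721 to 10.2 in HD. The 5p arm was not past the threshold without HP2, HP3, HD1 or HD3 and the 3p arm was past it only without HD1 (limma adjusted p up to 0.117).

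**Figure D4:**
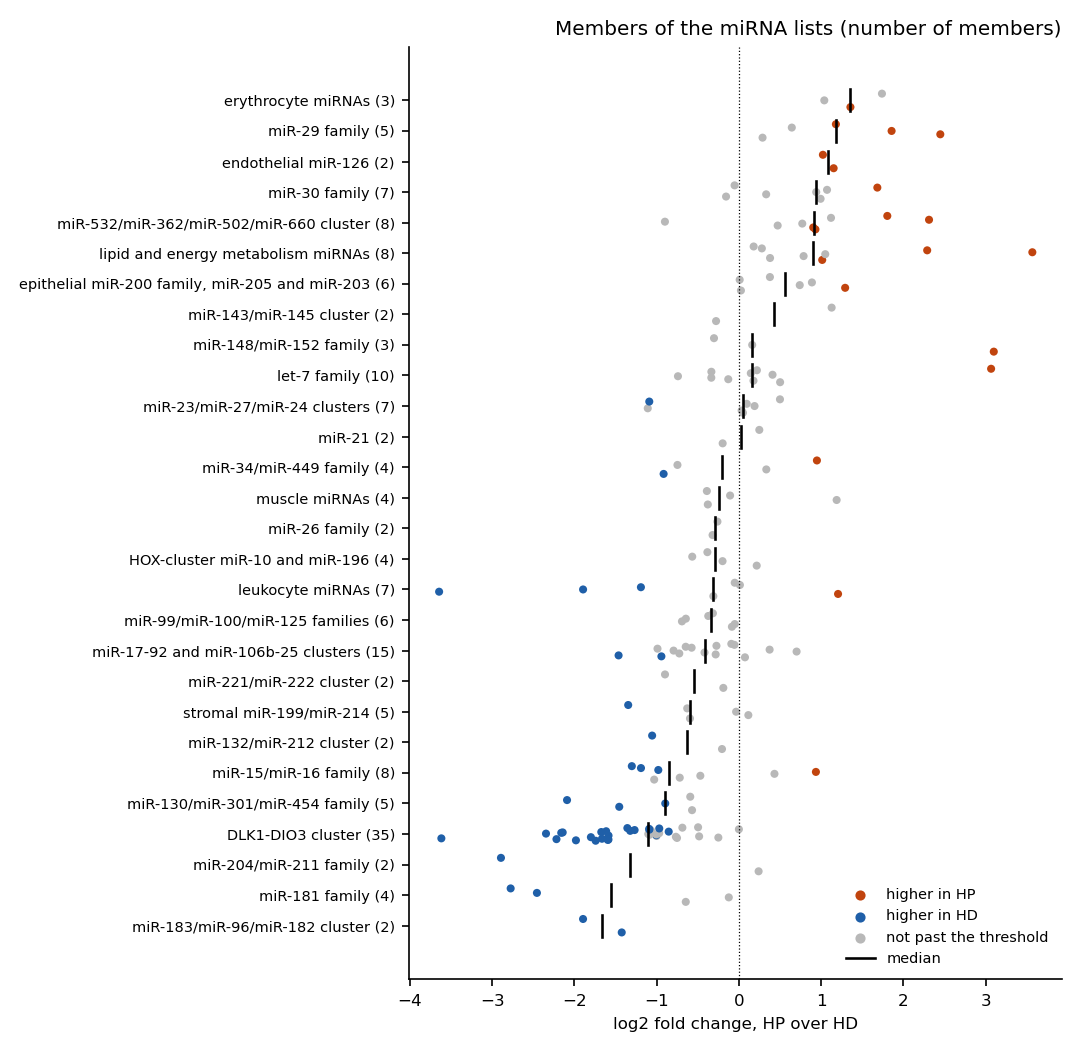
Log2 fold change of HP over HD for every measured member of the 28 miRNA lists, ordered by the median (black line), with the number of members in brackets. Orange members are higher in HP, blue members higher in HD and grey members did not pass. The DLK1-DIO3 members all lie at or below 0, and the miR-29 members all lie above it.

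Markers of other cell types moved in different ways. The endothelial miR-126-3p had 17226, 11471 and 11891 normalized TPM in HP and 6208, 5997 and 5758 in HD (log2 fold change 1.15 ± 0.26 SE, adjusted p by limma = 0.0124, and 0.0509 without HD2). The other arm, miR-126-5p, had 21.6 to 25.4 and 7.52 to 16.2 (adjusted p = 0.0487) and passed only when HD3 was left out (adjusted p up to 0.143 otherwise), and not without size factors. Of the epithelial list 1 of 6 was higher in HP, close to the 14.2% of all miRNAs. miR-141 had 13527, 18048 and 17528 in HP and 4466, 5212 and 12538 in HD (log2 fold change 1.29 ± 0.40 SE, adjusted p by limma = 0.0417), with HD3 close to the lowest HP library, and it did not pass without HP2, HP3, HD1 or HD2 (adjusted p up to 0.139). The sum of the list was 35062 to 43886 in HP and 19475 to 30327 in HD (exact permutation p = 0.1). As a share of the TPM summed over the 388 miRNAs, without size factors, it was 4.31% to 5.01% in HP and 2.79% to 5.195% in HD. In this share the groups overlapped (exact permutation p = 0.5).

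Of the leukocyte list 3 of 7 were higher in HD and 1 higher in HP, against 16.0% and 14.2% of all miRNAs. Besides miR-146b these were miR-146a, with 243, 294 and 268 normalized TPM in HP and 697, 550 and 2581 in HD (log2 fold change -1.89 ± 0.53 SE, adjusted p by limma = 0.0293), and miR-155 of activated immune cells, with 196, 146 and 135 against 292, 300 and 529 (log2 fold change -1.19 ± 0.32 SE, adjusted p by limma = 0.0257). Without HD3 the log2 fold change of miR-146a was -1.21. miR-146a did not pass without HP1, HP2 or HP3, and miR-155 did not pass without HP2, HP3, HD2 or HD3 (adjusted p up to 0.0917). In the other direction the lymphocyte miRNA miR-150 had 2385, 1314 and 1210.5 in HP and 931, 713 and 465 in HD (log2 fold change 1.21 ± 0.37 SE, adjusted p by limma = 0.0397). It passed only when HD1 was left out (adjusted p up to 0.118 otherwise) and did not pass without size factors. The most abundant leukocyte miRNA, miR-142-5p, had 3738 to 7981 in HP and 5977 to 9916 in HD, and miR-223 of myeloid cells had 14.2 to 26.9 and 13.7 to 35.7. Neither pair of groups was apart. The sum of the list was 6925 to 10014 in HP and 9240 to 18086 in HD, with HD3 the highest (exact permutation p = 0.4). As a share of the TPM summed over the 388 miRNAs, without size factors, it was 0.791% to 1.17% in HP and 1.32% to 2.12% in HD. In this share the groups did not overlap (exact permutation p = 0.1), but it is also lowered in HP by the larger share of miR-148a.

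Of the red cell miRNAs 1 of 3 was higher in HP, namely miR-486, with 712, 865 and 909.6 normalized TPM in HP and 187, 279 and 638 in HD (log2 fold change 1.36 ± 0.43 SE, adjusted p by limma = 0.0451). It did not pass without HP1, HP2, HP3, HD1 or HD2 (adjusted p up to 0.132), and the sum of the list was 878 to 1347 in HP and 294 to 881 in HD. The smooth muscle miR-143 and miR-145 (0 of 2) and the muscle list (0 of 4) did not pass. miR-143 had 65790 to 90945 in HP and 55929 to 120243 in HD, and miR-133a was highest in HD3 with 618 against 110 to 270 in the other libraries. In the stromal list 1 of 5 was higher in HD, miR-214 with 55.2, 50.2 and 57.6 in HP and 113, 183 and 131 in HD (log2 fold change -1.35 ± 0.29 SE, adjusted p by limma = 0.010), while the abundant miR-199a-3p had 7087 to 11987 and 11401 to 17190.0 (limma adjusted p = 0.164). The part of the cell makeup of the biopsies in the differences given here was not tested.

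Most of the abundant families showed no difference past the threshold. None passed in the miR-26 family (0 of 2), the miR-99, miR-100 and miR-125 families (0 of 6), miR-10 with miR-196 (0 of 4), miR-221 with miR-222 (0 of 2) and miR-21 (0 of 2). miR-26a had 68066 to 80003 normalized TPM in HP and 66862 to 122990 in HD, miR-10b had 30408 to 56782 and 25102 to 53994, and miR-21-5p had 16937 to 25747 and 19269 to 29070. In each of them the groups overlapped, and with standard errors of 0.28 to 0.37 on the log2 scale smaller differences could have gone unseen. Without size factors miR-26a was higher in HD (log2 fold change -0.54, limma adjusted p = 0.0336). The share of the miR-26 family in the TPM summed over the 388 miRNAs was 9.08% to 10.1% in HP and 14.1% to 15.7% in HD (exact permutation p = 0.1). Both of these values are also lowered in HP by the larger share of miR-148a. With size factors the sum of the family was 73659 to 88462 in HP and 74245 to 133931 in HD, and the groups overlapped (exact permutation p = 0.3). Of the let-7 family, 1 of 10 passed, which was the minor arm let-7a-3p described above. Without size factors 1 member passed as higher in HP and 1 as higher in HD, as with a total without the 10 most abundant miRNAs. let-7a-5p from the major arm had 14166 to 29165 in HP and 13164 to 20962 in HD. In the miR-30 family 1 of 7 passed, miR-30f with 2114, 668 and 1190 in HP and 396, 364 and 351 in HD (log2 fold change 1.68, limma adjusted p = 0.0155, and 0.054 without HD2), and miR-30a-5p, the third most abundant miRNA in both groups, had 64732 to 83492 in HP and 22048 to 66277 in HD (limma adjusted p = 0.090).

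Of the remaining lists, miR-148a was the only member of its family to pass (1 of 3), since miR-148b had 999.5 to 1089 normalized TPM in HP and 723 to 1109 in HD, and miR-152 had 212 to 543 and 235 to 642. In the miR-23, miR-27 and miR-24 clusters 1 of 7 passed, the minor arm miR-27a-5p with 6.31 to 10.6 in HP and 12.7 to 26.5 in HD (limma adjusted p = 0.0479, and up to 0.157 without HP2, HP3, HD2 or HD3). Of the miR-34 and miR-449 family miR-34a, which p53 induces, was higher in HD, with 61.2, 60.5 and 65.4 against 122, 93.0 and 146 (log2 fold change -0.92, limma adjusted p = 0.0397), and miR-34b was higher in HP at a low level, 2.43 to 5.10 against 0.974 to 2.17 (limma adjusted p = 0.0499). miR-34a passed only when HD2 was left out, and miR-34b only when HP1 or HD1 was (adjusted p up to 0.159 otherwise). Of miR-132 with miR-212, miR-212 was higher in HD, at 0 to 0.742 in HP and 1.27 to 2.27 in HD, near the 3-read limit, and did not pass without HP2, HP3 or HD3 (limma adjusted p up to 0.0816).

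The balance of the 2 arms of a hairpin also differed with stage. The ratio was taken within a library, and for the test 1 TPM was added to each arm, so that the tested difference depends on the level of low arms. Of 39 hairpins with both arms in the table, 19 had a mean of at least 10 TPM for each arm, and 8 of the 19 (42.1%) passed a limma adjusted p of 0.05, 3 with a higher and 5 with a lower ratio of 5p to 3p in HP. In the miR-362 hairpin the ratio of the deposited TPM, with nothing added, was 1.43, 0.860 and 1.85 in HP and 3.59, 6.45 and 7.03 in HD (difference of the log2 ratio in the test -1.85, SE 0.39, limma adjusted p = 0.0247). The mean of the deposited TPM was 34.3 in HP and 28.4 in HD for the 5p arm and 26.4 and 5.45 for the 3p arm, which was the one higher in HP. In the miR-345 hairpin the TPM ratio was 0.457, 0.480 and 0.483 in HP and 0.236, 0.148 and 0.151 in HD (difference 1.34, SE 0.29, limma adjusted p = 0.0247).

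For let-7a the 5p arm had 58.0, 95.0 and 68.1 times the TPM of the 3p arm in HP and 166, 731 and 1393 times in HD (difference -2.89, SE 0.73, limma adjusted p = 0.0369). These are values of the let-7a-3 hairpin, at which reads from other let-7a hairpins can also count. They need not be the balance of that hairpin alone. The TPM ratio was 25.1, 38.7 and 19.1 in HP and 9.03, 8.30 and 2.38 in HD for miR-411c, and 6.77, 4.28 and 6.13 in HP and 15.5, 10.8 and 10.8 in HD for miR-17 (differences 1.87 and -1.10, limma adjusted p = 0.0495 for both). These 5 hairpins were chosen as the smallest p-values of this test, so that their groups did not overlap is a description. The groups of the miR-423 and miR-151 hairpins did not overlap either, and neither passed (limma adjusted p = 0.234 for both). Calls of the arm test were fragile: 0 of the 19 passed without HP1, HP2, HP3 or HD2, where the smallest adjusted p was 0.0705 to 0.0856, and 5 and 4 passed without HD1 and HD3. With 5 TPM added to each arm in place of 1, 3 passed.

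The same stage difference was then read in the low protein cows, which share no library with HP and HD. LP against LD gave 52 of 388 miRNAs (13.4%) past a limma adjusted p of 0.05, 32 higher in LP and 20 higher in LD. Of these, 39 also passed in HP against HD, which is 75.0% of the LP and LD calls and 33.3% of the HP and HD calls, and all 39 had the same direction. Of the 117 miRNAs of the high protein cows, 112 had the same sign in the low protein cows, where over all miRNAs 305 of 388 did (78.6%). Across the 388 miRNAs, which are not independent, Pearson's r of the 2 sets of log2 fold changes was 0.864 and Spearman's rho was 0.824. miR-148a had a log2 fold change of 2.50 in the low protein cows, miR-375 of 2.68, miR-33b of 2.19, miR-146b of -2.49 and miR-181d of -1.91.

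**Figure D5:**
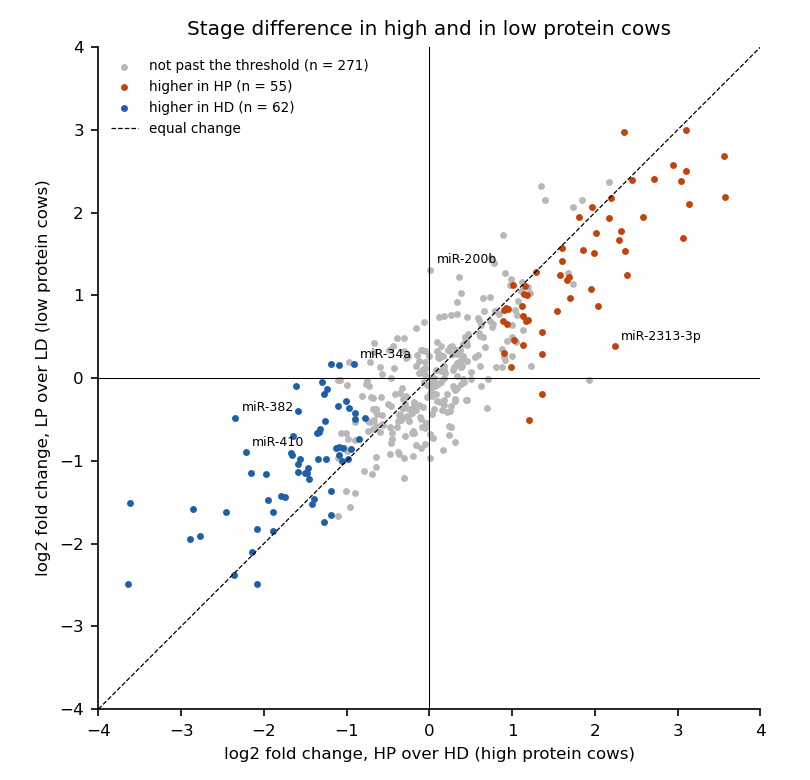
Log2 fold change of HP over HD (high protein cows) against that of LP over LD (low protein cows) for the 388 miRNAs, coloured by the call in the high protein cows, with a dashed line of equal change. Most coloured points lie in the quadrants of equal sign, 112 of 117, and names mark the 5 miRNAs with the smallest p-values in the test of the difference between the 2 sets of cows.

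No miRNA was shown to differ in its stage difference between the high and the low protein cows. In a test of the difference on the 12 libraries together, 20 miRNAs reached an unadjusted p under 0.05 and 0 a limma adjusted p under 0.05 (smallest adjusted p = 0.288, 0.203 to 0.992 over the alternatives). The smallest p-values were those of miR-2313-3p, miR-382, miR-200b, miR-410 and miR-34a. miR-2313-3p had 2.7995 to 6.59 normalized TPM in HP and 0.0455 to 0.191 in HD, where it rested on 3, 2 and 1 reads, with log2 fold changes of 2.24 in the high and 0.38 in the low protein cows. For miR-382 they were -2.34 and -0.48, for miR-410 -2.22 and -0.89, and for miR-34a -0.92 and 0.17. miR-200b went the other way, with 0.01 in the high and 1.31 in the low protein cows, where the limma adjusted p was 0.023.

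In the DLK1-DIO3 list the median log2 fold change was -0.66 in the low protein cows, where 4 of 35 passed as higher in LD against 5.15% of all miRNAs, and -1.10 in the high protein cows, where 22 passed as higher in HD against 16.0% of all. Whether the list differed between the cows was not tested. In 105 of the 117 miRNAs that passed in the high protein cows the absolute log2 fold change was the larger there, with medians of 1.56 against 1.08, but these miRNAs were chosen by the values of the high protein cows. Over all 388 miRNAs the median absolute log2 fold change was 0.65 in the high and 0.52 in the low protein cows.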

How the data were processed

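Small RNA of mammary biopsies was sequenced in 12 libraries, of which the 6 of high protein cows were compared and the other 6 were used for the low protein cows. The authors trimmed reads with Cutadapt 2.8 and Trimmomatic 0.36, retained lengths from 18 to 30 nt, used Bowtie 1.1.1 with at most 1 mismatch against the ARS-UCD1.2 genome, quantified miRBase 22.0 entries through miRDeep2, and deposited RPM values (reads scaled to the miRNA total of a library), which they call TPM. Where a miRNA has several precursors a read can count at each. Whole multiples of 1 step made up 100% of the values up to 1000 TPM in every library within the rounding of 0.005, which gave the depth. Columns left unused numbered 0.

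Each library was scaled by a median-of-ratios factor, and analysed as log2 of the scaled value plus 1, which understates differences of miRNAs at a few TPM. Groups from the labels were fitted with limma 3.58.1 in R 4.3.3 (empirical Bayes with a mean-variance trend) and p-values adjusted by Benjamini-Hochberg over the 388 miRNAs. Sums and shares were tested with two-sided exact permutation tests, in Python 3.11.15 with numpy 2.4.6 and pandas 2.3.3. Plots used matplotlib 3.10.9. The fits were tested on simulated data. Alternatives were TPM without size factors, other pseudocounts, filters, no trend, every precursor entry, a replicate block, all 12 libraries in 1 fit and leaving out each library. Library weights and a total without the 10 most abundant miRNAs were added after seeing the data.

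Named miRNAs were, in each direction, the 10 smallest p-values and 5 largest differences with a mean of at least 10, the 10 highest means, up to 4 members per list, the 5 smallest p-values of the other tests, those at 0 in a whole group, and sole members of a list to pass or not. Others named were chosen after their values were seen. The comparison and the miRNA lists were chosen with earlier results of these data known. Genome neighbours came from the RefSeq annotation of ARS-UCD2.0, another build than the authors', so no coordinates are given.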

Additional observations from a re-analysis of the deposited data

How the results depend on the processing

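Of the 117 miRNAs, 88 passed in every alternative that kept the 6 libraries and 54 also without each library. The number that passed was 105 without size factors, 120 and 114 with pseudocounts of 0.1 and 5, and 158 with library weights (79 in each direction), and it ranged from 61 to 122 when a library was left out, with 33 to 58 higher in HP and 28 to 64 higher in HD. With the limits for DE miRNAs it ranged from 110 to 162. Labels give the groups the same replicate numbers, but the cows differ and nothing says they were matched. Deviations from the group means correlated by 0.112, 0.114 and 0.064 in the pairs, and 2 of the 3 HP libraries correlated best with their own number. With the replicate block 118 miRNAs passed, 63 higher in HP and 55 higher in HD.

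For the arm ratio 3 of 19 hairpins passed with a pseudocount of 5, 3 of 29 with means of at least 1 TPM, 5 with the replicate block, and 0 to 5 when a library was left out. The contrast of the stage difference between the cows gave 0 throughout. Among named miRNAs, 133 values of an alternative no longer passed, 33 newly passed and 67 that passed in neither case changed sign. The cause was not tested. The 2 planned count models, edgeR and DESeq2, were not run. The values step in whole reads, but a rule set for these models, on the number of values within 20 reads, was not met in all libraries. Such values numbered 42 to 119 per library.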
